A study of Rattus rattus with 23 samples.

Results

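The annexin genes and the gene of the annexin A2 partner S100a10 were followed in rat nasal respiratory epithelium after inhalation of hydrogen sulfide (H2S), a toxic gas that blocks cellular respiration. The members were Anxa1, Anxa2, Anxa3, Anxa4, Anxa5, Anxa6, Anxa7, Anxa8, Anxa11 and S100a10, chosen by gene symbol from the platform's probe table. These 10 genes were read by 16 of the 31099 probe sets, and 15 of the 16 passed the filter on low signals that 19822 probe sets passed in all. The probe set left out was 1367975_at of Anxa3, which lay above its array's median on 1 of 23 arrays.

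Annexins are cytosolic proteins that bind negatively charged phospholipids when calcium rises, and several of them gather at torn plasma membranes and help to reseal them. Annexin A1 also damps inflammation, as an inhibitor of phospholipase A2 activity and as a ligand of formyl peptide receptors on leukocytes. Annexin A2 forms a complex with S100a10 that anchors actin to membranes and gathers plasminogen and its activators at the cell surface. In airway linings both are made by several epithelial cell types, among them the basal cells, progenitors that replace lost surface cells.

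Each of the 23 Affymetrix Rat230_2 arrays held RNA of 1 male Sprague-Dawley rat, laser captured from the respiratory epithelium where injury and regrowth took place. The rats inhaled 200 ppm H2S or air through the nose for 3 h a day, in the groups H2S 3 h (n = 4), H2S 6 h (n = 3), H2S 24 h (n = 4), air 24 h (n = 4), H2S 144 h (n = 4) and air 144 h (n = 4), named by the time since the first exposure. The 144 h groups had 5 daily exposures and the others 1. Air animals were sampled only at 24 h and 144 h, so exposure at 3 h and 6 h was set against air animals of 24 h and differs from them in time as well. The age is 60 days in the sample labels and 10 weeks in the design text. The labels call the organism Rattus rattus, while their strain name and taxonomy number belong to Rattus norvegicus. The treatment text of animals 6, 14 and 18 gives 5 days of exposure although their titles say 3 h or 24 h, and they were grouped by title. By each gene's probe set with the highest mean, animal 6 was the highest of the H2S 3 h group for every member but Anxa7. For Anxa7 it was the lowest, at 9.03. Animal 14 was the highest of the H2S 24 h group for Anxa1, Anxa3, Anxa7 and Anxa8.

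Some arrays and markers qualify what follows. The arrays of animal 18 (air 24 h) and animal 22 (air 144 h) stood apart, with median correlations of 0.408 and 0.685 with the other arrays, so values without both animals are given beside the results they touch. At 144 h the RNA integrity number was 1.7 to 5.1 in exposed animals and 5.1 to 6.9 in air animals. Where the labels gave it, it was 2.6 to 5.1 in air animals at 24 h (n = 3). It was 5.3 to 7.2 in exposed animals at 3 h (n = 2), 5.8 to 6.4 at 6 h (n = 2) and 2.6 to 10 at 24 h (n = 4). Thus exposed animals of 3 h and 6 h had higher numbers than their air animals, the other way round from 144 h. Markers of basal (7), ciliated (5) and secretory (8) cells passed the filter on low signals. Genes of olfactory epithelium (7), stroma and vessels (8), leukocytes (11) and cartilage and bone (6) passed too, with Col1a1 at a mean of 14.81 to 15.90 across groups, so the captured material was not epithelium alone. Fewer cells of a type and less RNA per cell cannot be told apart in such samples.

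Values are log2 of the signal plus 16, on which changes of dim genes come out too small. Differences are given on this log2 scale with the standard error (SE) of a limma model. A call means a Benjamini-Hochberg adjusted p under 0.05 over all 19822 probe sets. No member probe set was called in any comparison by limma. The background was also thin: 0.0807% of probe sets were called at 3 h, 0.00504% at 6 h, 0.0101% at 24 h and 0% at 144 h against air. It was 0% for air at 144 h against air at 24 h and for the difference between the effects at 144 h and 24 h, 0.00504% for the step from 3 h to 6 h and 0.0101% for that from 6 h to 24 h. The differences below are therefore measured values that did not pass the test.

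Anxa2, whose protein links membranes to actin, was the only member whose exposed animals all lay above the air animals throughout the first day. Its main probe set, 1367584_at, read 11.34, 11.24, 12.91 and 11.53 in air animals at 24 h. It read 12.98, 13.74, 13.82 and 14.58 at 3 h, 13.90, 13.08 and 13.51 at 6 h, and 13.54, 13.98, 13.17 and 13.98 at 24 h. All 11 exposed animals of these times lay above all 4 air animals of 24 h, a pattern met by 0.207% of the probe sets tested. This pattern was looked for after the values were seen. The closest pair was air animal 17 at 12.91 and exposed animal 3 at 12.98.

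Against air at 24 h, Anxa2 differed by 2.02 at 3 h (SE 0.497; limma adjusted p = 0.167), a 4.07-fold higher signal. The difference was 1.74 at 6 h (SE 0.537; limma adjusted p = 0.781) and 1.92 at 24 h (SE 0.497; limma adjusted p = 0.363). The 3 comparisons share the same air animals, so they are not separate evidence. Without animals 18 and 22 the differences were 1.95, 1.67 and 1.84.

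At 144 h Anxa2 read 12.66, 13.36, 14.89 and 13.68 in exposed animals and 11.23, 12.42, 12.79 and 13.31 in air animals. The groups overlapped, since exposed animal 23 lay below air animals 21 and 22. The difference was 1.21 (SE 0.497; limma adjusted p = 0.603), or 0.79 without exposed animal 25, the highest of its group. Air animal 22 was the highest air animal. Without it the air mean was 12.15 rather than 12.44, beside an exposed mean of 13.65. Over both air groups, 11 of the 15 exposed animals lay above all 8 air animals, which 0.404% of probe sets matched or passed.

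Anxa1, the annexin best known for limiting inflammation, was also higher in most exposed animals. Probe set 1367614_at read 13.66, 12.90, 14.15 and 11.14 in air animals at 24 h and 12.22, 13.59, 12.59 and 12.91 in air animals at 144 h. At 3 h it read 14.64, 15.05, 14.88 and 15.21, so all 4 exposed animals lay above all air animals.

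At 6 h Anxa1 read 14.40, 12.99 and 14.81, and at 24 h 14.36, 14.16, 13.56 and 14.83. Animals 9 (6 h) and 13 (24 h) fell inside the air range. At 144 h the values were 13.82, 14.33, 16.04 and 14.72, again with no overlap with the air animals of that time. In all, 12 of the 15 exposed animals lay above all 8 air animals, a count that 0.146% of probe sets reached or passed and that was taken after the values were seen.

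The Anxa1 difference was 1.99 at 3 h (SE 0.559; limma adjusted p = 0.275), 1.10 at 6 h (SE 0.604; limma adjusted p = 0.781), 1.27 at 24 h (SE 0.559; limma adjusted p = 0.612) and 1.90 at 144 h against air at 144 h (SE 0.559; limma adjusted p = 0.58). Air animal 18 was the lowest of all 23 for this gene. Without animals 18 and 22 the values were 1.38 at 3 h, 0.50 at 6 h and 0.66 at 24 h, while the value at 144 h was 1.92. Leaving out exposed animal 25 gave 1.46 at 144 h, and a fit of 19 arrays that took RNA integrity into account gave 2.28 (limma adjusted p = 0.549).

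Anxa8, an annexin found in stratified and squamous epithelia, resembled Anxa2. Probe set 1373654_at read 11.89, 10.71, 12.02 and 11.62 in air animals at 24 h and 13.0003, 12.55, 13.13 and 14.31 at 3 h. It read 14.04, 11.83 and 12.31 at 6 h and 12.50, 13.07, 12.53 and 13.98 at 24 h. Exposed and air animals did not overlap at 3 h and 24 h, and animal 9 at 6 h was the 1 exception among 11 exposed animals. At least 10 of the 11 lay above all air animals of 24 h for 0.681% of probe sets.

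The Anxa8 difference was 1.69 at 3 h (SE 0.488; limma adjusted p = 0.302), 1.17 at 6 h (SE 0.527; limma adjusted p = 0.781) and 1.46 at 24 h (SE 0.488; limma adjusted p = 0.575). At 144 h the exposed animals read 13.23, 12.95, 13.998 and 12.95 and the air animals 11.84, 12.33, 12.03 and 13.06. The groups overlapped through air animal 22 alone, and the difference was 0.97 (SE 0.488; limma adjusted p = 0.658), or 1.22 without animals 18 and 22.

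**Figure D1:**
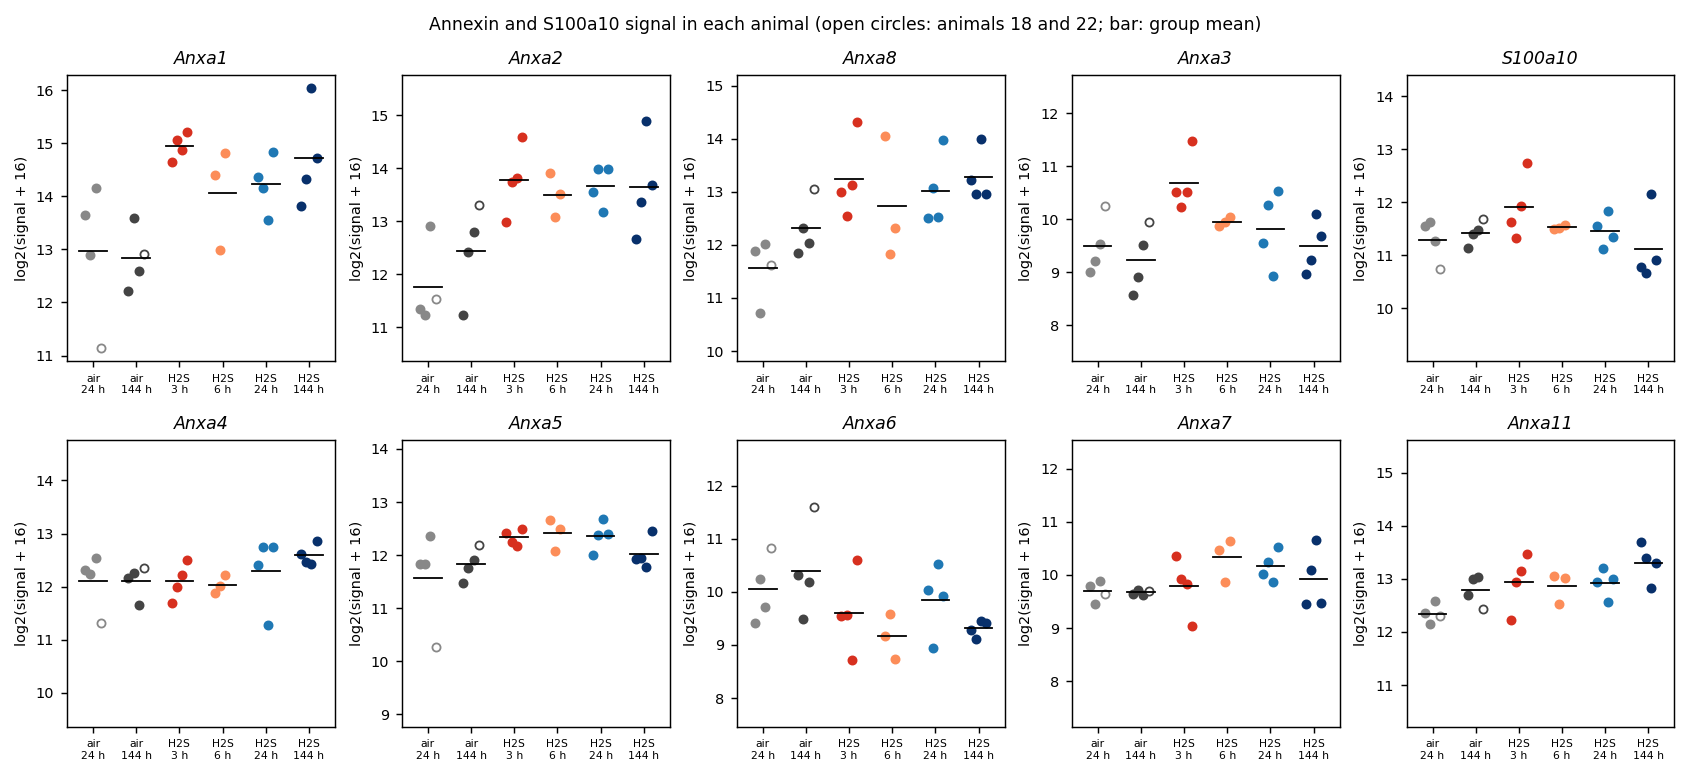
Signal of the 10 genes in each animal, on the log2 scale of signal plus 16, by group (each gene's probe set with the highest mean; bars are group means, open circles animals 18 and 22). For Anxa2 the 11 exposed animals of 3 h, 6 h and 24 h all sit above the 4 air animals of 24 h, while the exposed and air groups of S100a10 and of Anxa7 overlap at each time.

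S100a10, the member of the S100 family that joins annexin A2 molecules into a complex, did not show the separation of Anxa2. Probe set 1386890_at read 11.56, 11.63, 11.26 and 10.74 in air animals at 24 h and 11.63, 11.33, 11.93 and 12.74 at 3 h. The difference was 0.61 at 3 h (SE 0.353; limma adjusted p = 0.559), with a 95% confidence interval of -0.12 to 1.35. At 6 h the 3 exposed animals read 11.50, 11.52 and 11.57, inside the range of the air animals.

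At 24 h S100a10 differed by 0.16 (SE 0.353; limma adjusted p = 0.891). Without animals 18 and 22 the value was 0.43 at 3 h and -0.03 at 24 h, so the sign at 24 h rests on air animal 18. At 144 h exposed animals read 10.78, 10.67, 12.15 and 10.91 and air animals 11.13, 11.39, 11.48 and 11.69. All but animal 25 thus lay below the air animals, and the difference was -0.30 (SE 0.353; limma adjusted p = 0.869), or -0.64 without that animal. Whether Anxa2 and S100a10 differ in their response was not tested.

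Anxa3, an annexin also known from neutrophils, had its highest group mean at 3 h. Its main probe set, 1367974_at, read 10.52, 10.22, 10.52 and 11.48 at 3 h against 9.002, 9.21, 9.54 and 10.26 in air animals at 24 h. The difference was 1.18 (SE 0.406; limma adjusted p = 0.393), and 1.43 without animals 18 and 22, when the groups no longer overlapped. At 6 h it read 9.87, 9.96 and 10.05, below all 4 animals of 3 h.

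The step of Anxa3 from 3 h to 6 h was -0.73 for 1367974_at and -0.62 for 1395313_s_at, the only probe sets of the 15 whose groups did not overlap in that step, where 3.78% of all probe sets were lower without overlap. Neither step passed (limma adjusted p = 1 for both). By 24 h the difference of 1367974_at from air was 0.32 (SE 0.406; limma adjusted p = 0.798), with animals 12 and 14 high at 10.26 and 10.53 and animal 13 low at 8.92. At 144 h it was 0.26 (SE 0.406; limma adjusted p = 0.911). These values were 0.57 and 0.50 without animals 18 and 22.

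Anxa5, which binds the phosphatidylserine exposed by dying cells, ranged from 12.00 to 12.68 in exposed animals of the first day. Probe set 1386862_at read 12.41, 12.26, 12.18 and 12.50 at 3 h, 12.66, 12.08 and 12.49 at 6 h, and 12.00, 12.37, 12.68 and 12.40 at 24 h. Air animals at 24 h read 11.83, 11.83, 12.37 and 10.27, the last of them animal 18.

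The Anxa5 difference was 0.76 at 3 h (SE 0.354; limma adjusted p = 0.498), 0.84 at 6 h (SE 0.382; limma adjusted p = 0.781) and 0.79 at 24 h (SE 0.354; limma adjusted p = 0.612). Without animals 18 and 22 these values were 0.33, 0.40 and 0.35, so each moved by over 1.5 times. At 144 h exposed animals read 11.93, 11.95, 11.78 and 12.46 and air animals 11.47, 11.76, 11.91 and 12.19. The groups overlapped, with means of 12.03 and 11.83, a difference of 0.20. The air mean was 11.71 without animal 22.

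Anxa6, a large annexin with a doubled core that is known to cap membrane wounds, had its lowest values relative to air at 144 h. Probe set 1387673_a_at read 9.28, 9.12, 9.46 and 9.41 in exposed animals at 144 h and 10.32, 9.49, 10.18 and 11.60 in air animals. All 4 exposed animals lay below all 4 air animals, and 3.43% of all probe sets were lower without overlap in this comparison. The difference was -1.08 (SE 0.452; limma adjusted p = 0.606), or -0.68 without animals 18 and 22. At 3 h Anxa6 differed from air by -0.45 (SE 0.452; limma adjusted p = 0.731), at 6 h by -0.89 (SE 0.489; limma adjusted p = 0.781) and at 24 h by -0.20 (SE 0.452; limma adjusted p = 0.898), with overlapping groups each time. The values were -0.19, -0.63 and 0.06 without animals 18 and 22, so the sign at 24 h turned.

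Anxa4, an annexin of epithelial membranes, was read by 1389305_at with differences of 0.00, -0.06 and 0.19 at 3 h, 6 h and 24 h. They were -0.27, -0.33 and -0.08 without animals 18 and 22, and the 6 h animals then all lay below the air animals. At 144 h exposed animals read 12.62, 12.47, 12.42 and 12.86 and air animals 12.16, 12.26, 11.65 and 12.35. The groups did not overlap, and the difference was 0.49 (SE 0.344; limma adjusted p = 0.746).

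Anxa7, known as synexin for its part in membrane fusion, read 10.48, 9.88 and 10.64 at 6 h by 1368143_at, against 9.80, 9.45, 9.89 and 9.64 in air animals at 24 h. The difference of 0.64 did not pass (SE 0.350; limma adjusted p = 0.781). It was 0.09 at 3 h (SE 0.324; limma adjusted p = 0.933), where animal 6 at 9.03 lay below every air animal of 24 h. At 24 h it was 0.47 (SE 0.324; limma adjusted p = 0.658) and at 144 h 0.25 (SE 0.324; limma adjusted p = 0.887). Anxa11, which ties RNA granules to lysosomes, differed by a like amount at each time. Its differences were 0.60 at 3 h (SE 0.301; limma adjusted p = 0.524), 0.52 at 6 h (SE 0.325; limma adjusted p = 0.781), 0.58 at 24 h (SE 0.301; limma adjusted p = 0.612) and 0.51 at 144 h (SE 0.301; limma adjusted p = 0.693). Groups overlapped in each of these comparisons for Anxa11.

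**Figure D2:**
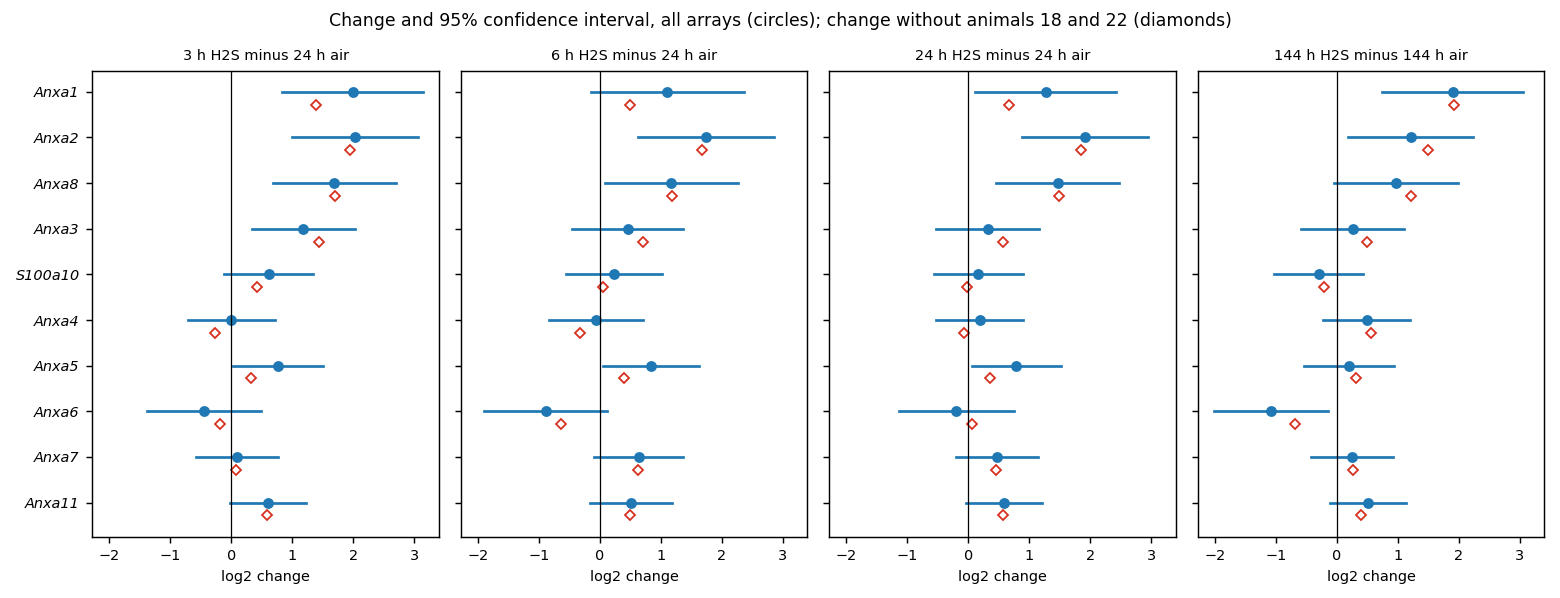
Difference between exposed and air animals on the log2 scale for each gene at 3 h, 6 h, 24 h and 144 h (circles, with 95% confidence intervals of the limma fit) and the same difference without animals 18 and 22 (diamonds). Among the circles, those of Anxa1, Anxa2 and Anxa8 sit farthest to the right at each time. Among the diamonds at 6 h, Anxa1 at 0.50 lies below Anxa3 at 0.71 and Anxa7 at 0.62, and at 3 h Anxa1 moves from 1.99 to 1.38 and Anxa5 from 0.76 to 0.33 without those animals.

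Across the 10 genes, 8 differences were above 0 at 3 h, 8 at 6 h, 9 at 24 h and 8 at 144 h, against 59.3%, 57.0%, 59.5% and 50.7% of the 11249 genes measured. The median difference of the 10 genes was 0.69, 0.58, 0.53 and 0.37 at these times, beside 0.14, 0.10, 0.14 and 0.01 over all genes. The counts at 24 h were 7 with quantile normalization and 10 with median centring, a scaling that moves the median of all genes up by 0.18 to 0.34 in these comparisons. The comparisons of the first day share their air animals.

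At an unadjusted p under 0.05, which is not a call, 6 of the 15 probe sets differed at 3 h, all higher, beside a background of 9.8% in either direction and 6% higher. The counts were 3 at 6 h (background 5.81%), 4 at 24 h (8.09%) and 3 at 144 h, 2 higher and 1 lower (7.8%). With animals 18 and 22 left out they were 7 at 3 h (9.78%), 2 at 6 h (4.5%), 2 at 24 h (6.6%) and 4 at 144 h (12.6%). Exposed animals lay above air animals without overlap for 4 probe sets at 3 h (background 3.02%), 1 at 6 h (2.49%), 2 at 24 h (2.22%) and 2 at 144 h (2.5%). Without animals 18 and 22 the counts were 6 (5.3%), 3 (4.51%), 2 (4.1%) and 3 (5.27%). Probe sets of the same gene were counted separately. At 3 h the 7 at an unadjusted p under 0.05 came from Anxa1, Anxa2, Anxa3 and Anxa8. The 6 with all arrays came from those genes and Anxa5, and both counts without overlap at 3 h from the same genes without Anxa5. No member reached that unadjusted p in the comparison of air animals at 144 h with air animals at 24 h, where 8.37% of probe sets did.

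A mean of the exposure effects at 24 h and 144 h was added after the data were seen, because its air groups are both matched in time. No probe set was called (0%). The mean was 1.56 for Anxa2 (SE 0.352; limma adjusted p = 0.21), 1.58 for Anxa1 (SE 0.395; limma adjusted p = 0.235) and 1.22 for Anxa8 (SE 0.345; limma adjusted p = 0.276). Without animals 18 and 22 the adjusted p was 0.0914 for Anxa2, 0.143 for Anxa1 and 0.139 for Anxa8. The effects at 144 h and at 24 h were also compared directly. Their difference was 0.63 for Anxa1 (SE 0.791; limma adjusted p = 0.958), -0.71 for Anxa2 (SE 0.703; limma adjusted p = 0.952) and -0.89 for Anxa6 (SE 0.640; limma adjusted p = 0.946). Air means of Anxa2 were 11.75 at 24 h and 12.44 at 144 h, or 11.83 and 12.15 without animals 18 and 22.

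Ordered by group mean, Anxa2 ran from air 24 h (11.75 ± 0.78, SD, n = 4) and air 144 h (12.44 ± 0.88) to H2S 6 h (13.50 ± 0.41, n = 3), H2S 144 h (13.65 ± 0.93), H2S 24 h (13.67 ± 0.39) and H2S 3 h (13.78 ± 0.66). The step from air 144 h to H2S 6 h, 1.06, was the only one between neighbours larger than both their SDs. For Anxa1 the order was air 144 h (12.83 ± 0.58), air 24 h (12.96 ± 1.32), H2S 6 h (14.06 ± 0.95), H2S 24 h (14.23 ± 0.53), H2S 144 h (14.73 ± 0.95) and H2S 3 h (14.95 ± 0.24), and no step between neighbours exceeded both SDs. For Anxa8 the one such step was from air 24 h (11.56 ± 0.59) to air 144 h (12.31 ± 0.54), and the exposed groups followed from 12.73 to 13.28.

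Genes read by several probe sets did not always agree. The second probe set of Anxa2, 1392250_at, correlated with the first at r = 0.2 over 23 arrays and 0.473 over the 21 without animals 18 and 22. It had a mean of 8.07 and gave a difference of 0.63 at 3 h (SE 0.544; limma adjusted p = 0.686), 0.25 at 6 h, 0.07 at 24 h and 0.04 at 144 h. Air animal 18 was the highest of all 23 for it, at 9.85, and without animals 18 and 22 its difference was 1.30 at 3 h, 0.92 at 6 h, 0.73 at 24 h and 0.06 at 144 h. The average of both probe sets gave Anxa2 differences of 1.33 at 3 h, 0.99 at 24 h and 0.62 at 144 h.

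Of the other Anxa3 probe sets, 1395313_s_at differed by 0.99 at 3 h without overlap (SE 0.338; limma adjusted p = 0.393) and 1380751_at by 0.88 (SE 0.498; limma adjusted p = 0.553). The 6 pairs of Anxa3 probe sets, that left out by the filter included, correlated at r = 0.344 to 0.797. The pair of Anxa4 correlated at r = 0.249 and the pair of Anxa7 at r = -0.207. Of the Anxa7 pair, 1368142_at was dim and lay above its array's median on 7 of 23 arrays, while 1368143_at did so on all 23. Anxa7 by 1368142_at differed by -0.19 at 3 h and -0.76 at 6 h, opposite in sign to 1368143_at, and by 0.52 and -0.05 without animals 18 and 22.

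**Figure D3:**
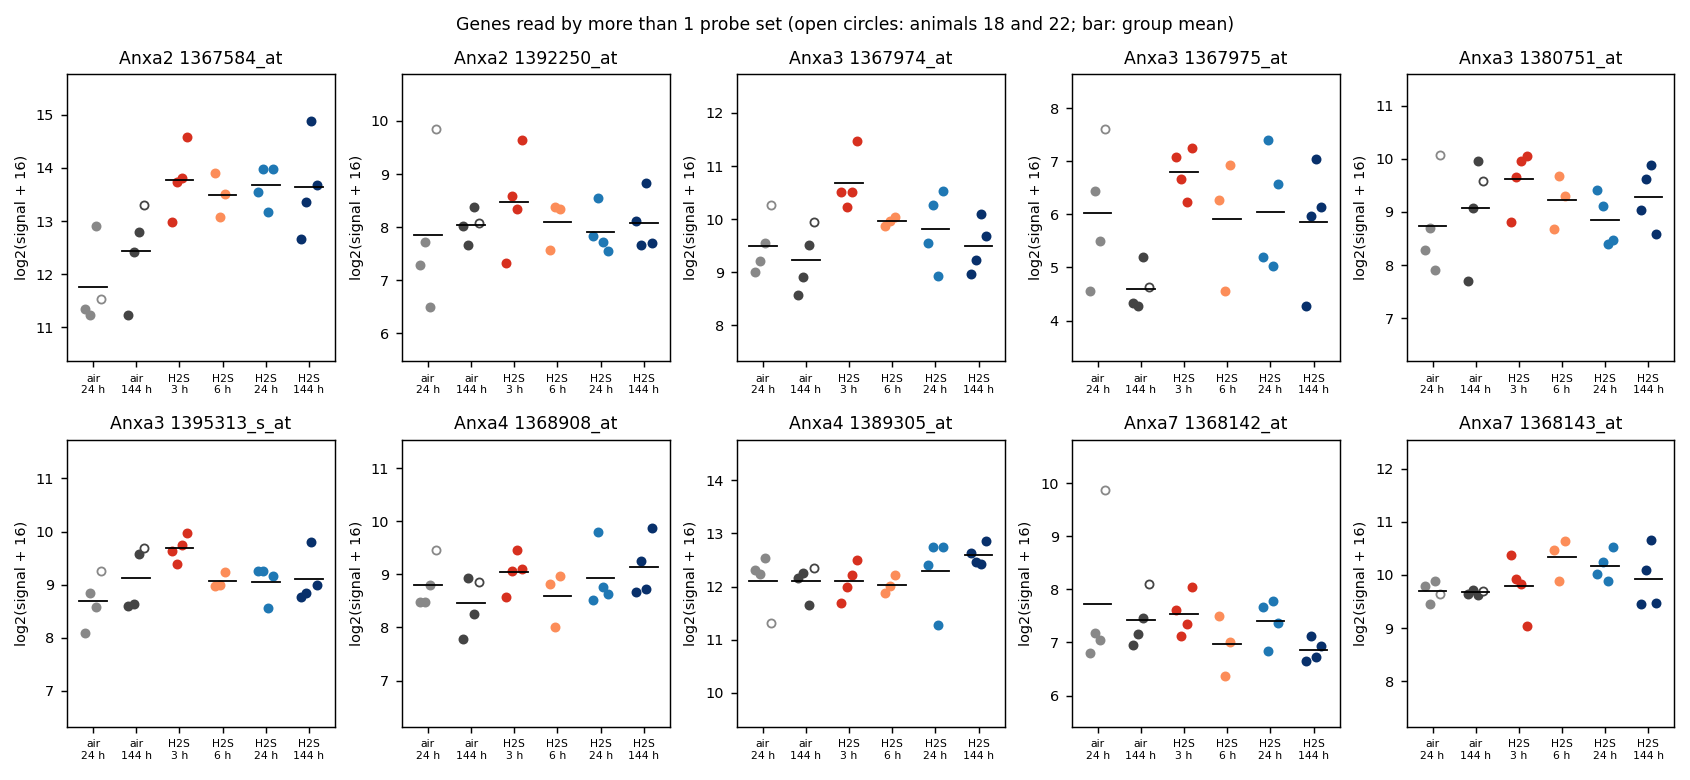
Log2 of signal plus 16 in each animal by group, for each probe set of the genes read by more than 1 (bars are group means, open circles animals 18 and 22). Animal 18 stands above the other 3 air animals of 24 h for 1392250_at of Anxa2 at 9.85 and 1368142_at of Anxa7 at 9.86. It also does so for every Anxa3 probe set and for 1368908_at of Anxa4 at 9.46. It does not for 1367584_at of Anxa2, 1389305_at of Anxa4 and 1368143_at of Anxa7.

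Basal cell markers were set beside Anxa1, Anxa2 and Anxa8. The summed signal of the basal list (8 of its 9 genes had a probe set and 7 passed the filter: Krt5, Krt14, Krt15, Tp63, Pdpn, Itga6 and Dst) was 9916 to 17200 in air animals at 24 h. It was 18080 to 56690 at 3 h, 18640 to 38170 at 6 h and 20150 to 44740 at 24 h, so all 11 exposed animals lay above those air animals here too. At 144 h it was 21950 to 114700 in exposed and 10740 to 40810 in air animals, of which animal 22 was the highest. The sum is weighted by its brightest genes, and its members differed among themselves. From air animals at 24 h to exposed animals at 3 h the mean went from 11.90 to 13.84 for Krt15, from 10.00 to 12.04 for Krt14 and from 8.95 to 9.69 for Krt5. It went from 11.44 to 11.43 for Itga6 and from 11.34 to 11.08 for Dst. At 144 h Itga6 was at 11.01 in exposed and 11.38 in air animals, Pdpn at 9.91 and 10.26, and Dst at 11.78 and 11.75. The rest of the list was higher in exposed than in air animals: Krt5 at 10.53 and 9.41, Krt14 at 12.00 and 10.13. Krt15 was at 14.16 and 12.81, and Tp63 at 9.57 and 8.70. The part of basal cell content in the annexin values was not tested.

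**Figure D4:**
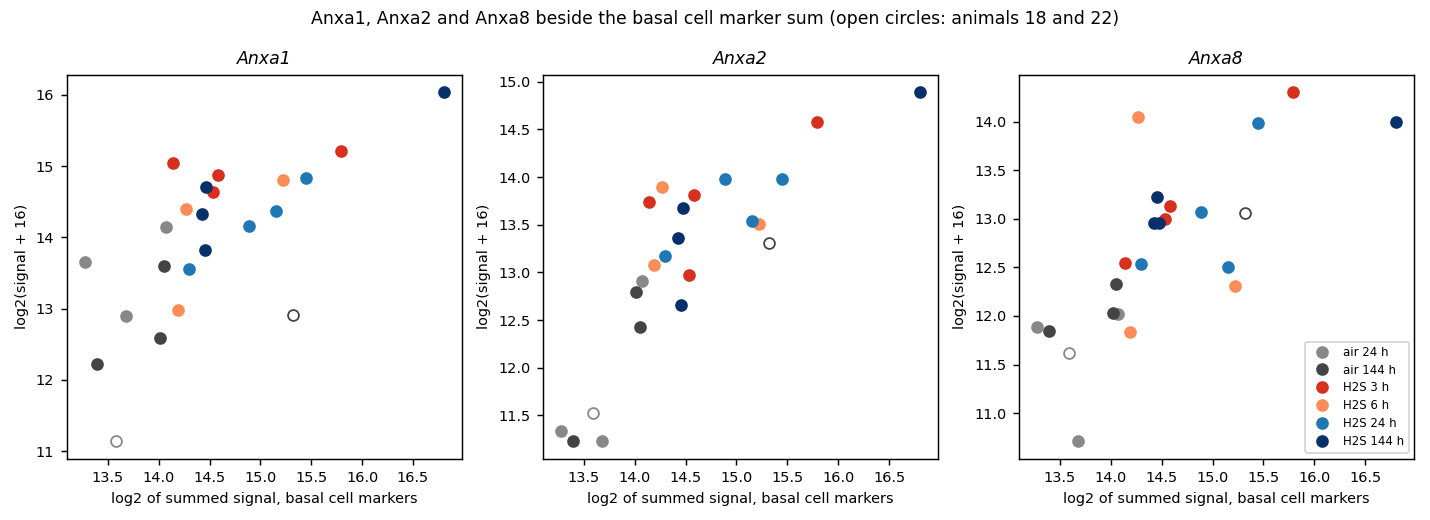
Log2 signal plus 16 of Anxa1, Anxa2 and Anxa8 in each of the 23 animals against log2 of the summed basal marker signal, coloured by group (open circles, animals 18 and 22). Animal 25 lies at the top right for Anxa1 (16.04) and Anxa2 (14.89), and the air animals of 24 h lie at the lower left of the Anxa2 panel.

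Leukocyte markers (11 of 12 passed) summed to 15770 to 38910 at 3 h and 8195 to 27140 in air animals at 24 h, with animal 15 the highest of the air animals. At 24 h the sum was 9267 to 10770 in exposed animals, inside the air range. This sum too is weighted by its brightest genes. From air animals at 24 h to exposed animals at 3 h the mean of S100a8 went from 6.40 to 8.71. That of Cd14 went from 8.47 to 10.82. Neither overlapped, while the other leukocyte markers did, and Cd3e went from 8.83 to 8.62. The squamous list (3 of 9 passed) summed to 471.8 to 724.4 at 3 h and 227.7 to 1396 in air animals at 24 h. At 144 h it was 287 to 545 in 3 exposed animals and 124000 in animal 25, the animal with the highest Anxa1, Anxa2, Anxa8 and S100a10 of its group. The part of leukocytes or squamous cells in the annexin values was not tested.

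The genes most like Anxa2 over the 23 arrays were the basal keratin Krt15 (r = 0.879), Ppp2cb, a phosphatase subunit (0.852), Degs1, a ceramide-making desaturase (0.851), the water and glycerol channel Aqp3 (0.847) and the uroplakin Upk1b (0.827). Without animals 18 and 22 these values lay between 0.831 and 0.875. Most like Anxa1 were Mindy1, a deubiquitinase (0.888), Htatip2 (0.832), Arpc2, a subunit of the actin-branching complex (0.826), the tubulin Tubb6 (0.82) and Rab11a, a regulator of recycling endosomes (0.82). Without those animals they lay between 0.736 and 0.836.

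Among the members, Anxa1 and Anxa2 correlated at r = 0.797 and Anxa2 and Anxa8 at 0.822 over 23 arrays, or 0.627 and 0.642 after each group's mean was taken out. Anxa1 and Anxa6 correlated at r = -0.54. Anxa2 and S100a10 correlated at r = 0.407. The arrays share their scaling and their mix of captured cells, so these values are descriptions.

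Genes around the annexins were read from lists, and no gene of any list was called in any comparison. Of the other annexins, only Anxa9 of 3 had a probe set that passed. This probe set was dim and lay above its array's median only in air animals 20 and 22 and exposed animal 25, all of 144 h. It thus just met the filter's minimum of 3 arrays. Since it passed only through arrays of 144 h, its differences that involve 144 h are given as values and not as tests. Its air means were 6.03 at 24 h and 7.84 at 144 h, a difference of 1.81 without overlap. Higher without overlap held for 1.24% of all probe sets there, and animal 22 was the highest at 8.89. Exposed animals differed by 0.73 at 3 h (SE 0.624; limma adjusted p = 0.684). At 144 h they differed by -1.40, where animal 25 at 8.18 was again apart from the other 3 at 5.36 to 6.14. The Anxa9 probe set left out by the filter did not show these differences at 144 h. In air animals it read 6.01, 6.04, 5.62 and 9.72 at 24 h and 5.28, 4.61, 5.16 and 6.39 at 144 h. In exposed animals at 144 h it read 5.52, 6.42, 10.14 and 4.68.

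Of the S100 and annexin-binding genes, 7 of 8 were tested and all 7 differences were above 0 at 3 h, with a median of 0.38 beside 0.14 over all genes and 59.3% of all genes above 0. S100a6, calcyclin, a partner of annexin A11, differed by 0.73 at 3 h (SE 0.466; limma adjusted p = 0.598) and 0.93 at 144 h (SE 0.466; limma adjusted p = 0.658). Animals 18 (13.22) and 22 (12.57) were the highest air animals of their times for S100a6. The other air animals reached 12.02 at 24 h and 11.70 at 144 h. The lowest exposed animals lay above these, at 12.22 at 3 h and 12.21 at 144 h. S100a11, a partner of annexin A1, differed by 0.80 at 3 h (SE 0.744; limma adjusted p = 0.709). At 24 h the median of the 7 was 0.58, with 5 above 0, beside 0.14 over all genes and 59.5% of them above 0. At 144 h it was -0.10, with 3 above 0, beside 0.01 over all genes and 50.7% of them above 0.

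For the plasminogen system, 5 of 7 genes were tested. Plat, the tissue plasminogen activator that binds the annexin A2 complex, read 10.19, 9.50, 10.86 and 10.64 at 3 h and 8.27, 8.26, 8.98 and 9.83 in air animals at 24 h. The groups overlapped through animal 18, and the difference was 1.46 (SE 0.437; limma adjusted p = 0.317), or 1.80 without animals 18 and 22. By 24 h it was 0.24 (SE 0.437; limma adjusted p = 0.862). Plaur, the urokinase receptor, differed by -1.33 at 3 h (SE 0.809; limma adjusted p = 0.579) and -1.85 at 24 h (SE 0.809; limma adjusted p = 0.612), or -0.45 and -0.97 without those animals. Serpinb2, an inhibitor of plasminogen activators, was dim in air animals of 24 h (5.01) and averaged 9.83 at 3 h. Its difference was 4.82 at 3 h (SE 1.68; limma adjusted p = 0.393) with overlapping groups, or 5.63 without animals 18 and 22, and 1.72 at 24 h. At so low an air signal its size rests on the 16 added before the logarithm.

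For the annexin A1 axis, 5 of 12 genes were tested, and no formyl peptide receptor was among them. At 3 h, 3 of the 5 differences were above 0, where 59.3% of all genes were. The list's median was 0.18, beside 0.14 over all genes. Means of Tsc22d3 and Alox5 were lower at 3 h, at 8.55 and 6.60, than in air animals at 24 h, at 9.68 and 6.98. Ptgs2, the inducible cyclooxygenase downstream of phospholipase A2, read 8.82, 7.31, 8.89 and 8.58 at 3 h and 6.75, 5.18, 7.51 and 5.34 in air animals at 24 h. Its difference was 2.21 (SE 0.510; limma adjusted p = 0.132), with 1 exposed animal inside the air range. At 24 h Ptgs2 differed by 0.87 (SE 0.510; limma adjusted p = 0.626). Ptgs1, the constitutive enzyme, differed by 0.85 at 3 h (SE 0.382; limma adjusted p = 0.491) and 0.88 at 24 h (SE 0.382; limma adjusted p = 0.612), and Pla2g4a, cytosolic phospholipase A2, by 0.18 and 0.11.

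For plasma membrane repair beside the annexins, 17 of 21 genes were tested. At 3 h 10 of the 17 differences were above 0, near the 59.3% of all genes. Their median was 0.26, beside 0.14 over all genes. Capn2, a calpain protease active at membrane wounds, differed by 0.61 at 3 h without overlap (SE 0.262; limma adjusted p = 0.472). Cav1, the caveolar coat protein, differed by 1.91 at 3 h (SE 0.810; limma adjusted p = 0.472) and 1.88 at 24 h, but by 0.55 and 0.52 without animals 18 and 22. At 24 h the list's median was 0.05, beside 0.14 over all genes.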

How the data were processed

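The deposited values are intensity, 1 signal per probe set and array on a linear scale; GCOS 1.0 is named in the submitters' processing notes, without settings. Per the labels' protocols, captured RNA went through a PicoPure column, RiboAmp OA amplification and Affymetrix labelling. No normalization was added, since trimmed means were already nearly equal; scaling of each array by the authors is inferred from that. The number of arrays limits the precision.

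Values were taken as log2 of intensity plus 16. Probe sets above their own array's median on at least 3 arrays were tested, without 57 control probe sets. Of all probe sets, 20832 had 1 symbol in the platform's annotation, 436 several and 9831 none. A gene was represented by its probe set with the highest mean. Group means were fitted by limma 3.58.1 (R 4.3.3) over all 23 arrays and tested two-sided, with Benjamini-Hochberg adjustment, in 9 comparisons of which the mean exposure effect was added later. The script was tested on simulated data. All member probe sets were named, with the list genes of smallest p at 3 h or 24 h and some partners allowed in any comparison. Likeness is Pearson's r of log2 values. The members and lists were chosen with earlier results of these data known. Animals were separate, and no label pairs them. Settings tried were other pseudocounts, normalizations, filters, limma options, RNA integrity, doubtful labels and leaving out animals. Genome positions and sequences were not used here.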

Additional observations from a re-analysis of the deposited data

Results flagged for a closer look

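In 3 of 80 groups of 4 animals, 1 animal stood far from the other 3; chance alone marks about 5% of groups. For S100a10 in exposed animals at 144 h, animal 25 read 12.15 and the others 10.67 to 10.91 on the log2 scale. For Anxa3 by 1395313_s_at in exposed animals at 24 h, animal 13 read 8.56 and the others 9.16 to 9.26. For Anxa7 by 1368142_at in air animals at 24 h, animal 18 read 9.86 and the others 6.80 to 7.18.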

How the results depend on the processing

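No paired analysis was possible because animal numbers are unique and no number is shared between groups. No member probe set was called by limma in any of the 9 comparisons under any setting run or with any animal left out. Of 2043 member differences under other settings, 1894 had the sign of the reported value, as did 1173 of 1275 with 1 animal left out. For Anxa2 at 3 h the difference ran from 1.29 with RNA integrity as a covariate (19 arrays), 1.46 over the same arrays without it, to 2.20 with median centring, and from 1.76 to 2.41 with 1 animal left out, with a lowest adjusted p of 0.0808. For Anxa1 at 24 h it ran from 0.46 without animals 6, 14 and 18 to 1.54 with median centring, and at 144 h from 1.41 to 2.28. The lowest adjusted p of any member was 0.0517, for the mean effect of Anxa2 with array weights. Over all probe sets, calls at 3 h ran from 0 to 67 and were 16 as reported. They ran from 0 to 68 at 6 h (1 as reported), 0 to 52 at 24 h (2), 0 to 1 at 144 h (0), 0 to 110 from 3 h to 6 h (1) and 0 to 93 from 6 h to 24 h (2). Calls for the mean effect ran from 0 to 157, the most with array weights. The causes of these shifts were not tested.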

Other observations

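Animal 25, exposed and sampled at 144 h, combined the highest Anxa1 (16.04), Anxa2 (14.89) and Anxa3 (10.09, by 1367974_at) of its group with a basal marker sum of 115000, against 21900 to 22700 in the other 3 animals. Its Anxa5 (11.78) and Anxa11 (12.83) were the lowest of the group. Its ciliated marker sum of 9260 was also the lowest, against 18800 to 23500.

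S100b, picked out after its values were seen, differed by -1.85 at 144 h with no overlap between exposed and air animals (SE 0.599; limma adjusted p = 0.58). Lower without overlap held for 3.43% of all probe sets there. Its mean was 9.25 in air animals at 144 h, 7.40 in exposed animals at 144 h, 7.62 in air animals at 24 h and 7.48 to 7.88 in the other exposed groups.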
